A study of Mus musculus with 9 samples.

Results

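The 5 genes that carry the leukemia inhibitory factor (LIF) signal to the nucleus, Lifr, Il6st, Jak1, Stat3 and Socs3, were examined for chromatin accessibility in 9 ATAC-Seq libraries of fibroblasts on the way to pluripotency. They were chosen by name as the receptor-to-Stat3 chain, and are 5 of the 37310 genes of the GENCODE annotation for mm9 (22367 protein-coding). Accessible regions were collected from 10 kb upstream of each transcription start site (TSS) to 10 kb past the end of the gene, and those that overlapped the 3 kb upstream of the start of any transcript were taken as promoter. Joined over the libraries, these 5 loci held 42 of 210151 regions.

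ATAC-Seq marks open chromatin by the cuts of the Tn5 transposase. Mouse embryonic fibroblasts (MEFs) of mid-gestation embryos that carry an Oct4-GFP reporter gave the D0 library. The same fibroblasts were infected with pMXs retroviruses for Sox2, Klf4, Oct4 and c-Myc (OSKM) and gave unsorted cells at day 3 (D3), Thy-1-negative cells at days 6 and 9 (D6T- and D9T-) and SSEA-1-positive cells at days 12 and 16 (D12S+ and D16S+). Established induced pluripotent stem cells (iPSCs) closed the series. At day 6, 2 more libraries came from infected cells that had received an siRNA against the histone variant H3.3 (D6 siH3.3) or a non-targeting siRNA (D6 siNT). The labels call both Thy-1-negative, while the study's list of libraries gives no sorting for them, so it is not settled whether they were sorted. Each condition had 1 library and no replicates, so no difference between conditions could be tested. The intervals given below are 95% intervals for the counting of tags alone. The factors are driven by the retroviral promoter, which is known to be silenced in pluripotent cells, and each sorted population is a pool of cells, so that fewer cells with an open site and less opening per cell cannot be told apart. D0 fibroblasts grew in serum medium without LIF, whereas, per the labels, reprogramming cells grew in medium with LIF, ascorbic acid, bFGF and the kinase inhibitor CHIR99021. For iPSCs the labels name a feeder-free medium, and the study's methods give serum-based or serum-replacement media, both with LIF. LIF exposure, OSKM and time therefore cannot be told apart here.

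LIF binds its receptor Lifr, which pairs with the signal-transducing chain gp130, the product of Il6st. The kinase Jak1, which sits on the inner side of the receptors, phosphorylates them and the transcription factor Stat3. Phosphorylated Stat3 pairs, enters the nucleus and binds DNA at palindromic TTCCNGGAA-like motifs. Among its targets is Socs3, which binds gp130 and Jak1 and shuts the signal off. In mouse pluripotent cells this chain is known for sustaining self-renewal.

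Between 13213117 tags (D9T-) and 31714845 tags (D0) had been sequenced per library, and the authors' calls gave 36708 (D9T-) to 133132 (D6T-) regions. Levels are given as the highest pileup of a region per 1000000 tags (CPM), and the lowest level that was called lay between 0.331 CPM (D3) and 0.530 CPM (D9T-). The median of the 12307 regions that were called in all 9 libraries, termed shared regions here, itself moved from 0.883 CPM at D0 to 1.98 at D3 and 3.41 at D6T-. It stood at 1.36 in D9T- and 1.98 in D16S+, returned to 1.05 in iPSCs, and was 1.29 and 1.19 in D6 siH3.3 and D6 siNT. Values divided by this median are called scaled values below. The 6 pluripotency markers examined, which include Nanog and Zfp42, had an accessible promoter in 1 of 6 cases at D0 and in 6 of 6 for the SSEA-1-positive cells and iPSCs. Of 6 fibroblast markers, 5 were accessible at D0, 6 at D16S+ and 4 in iPSCs. Of the blood markers, Ptprc was not called in any library and Cd68 was called in all 9, and between 0 and 3 of 3 endothelial markers were called.

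Of the 5 genes, 4 had a promoter region in all 9 libraries (Lifr, Jak1, Stat3 and Socs3), as did 43.9% of all protein-coding genes. At the GENCODE start of Il6st no library had one, a pattern found for 25.3% of protein-coding genes. The RefSeq promoter of Il6st, however, matched the genome once, 10.9 kb upstream of the GENCODE start, and this place was accessible in all 9 libraries. Il6st is therefore described from the RefSeq start, a choice made after the values were seen. In CPM, Stat3, Jak1, Socs3 and Il6st rose from D0 to a peak at D6T- and lay lower from D9T- on, and Lifr reached its highest levels at D3 and D6T-. After scaling on shared regions most of this course was gone. The scaled promoter of Stat3 stayed between 1.62 and 2.00 in all 9 libraries, whereas Jak1 started at 0.857 and lay between 1.32 and 2.21 in the others. Outside the promoters, the sites within and behind Jak1 that were open from D0 to D6T- were not called at D16S+. Over all protein-coding loci, D16S+ overlapped 16.9% of the D6T- regions outside promoters, so most such regions were not overlapped either. Sites upstream of Socs3 and Il6st and within Lifr were called only after OSKM, each with 12 to 33 tags per library. D0 was the sole library before OSKM, so a missing call there rests on 1 library.

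**Figure D1:**
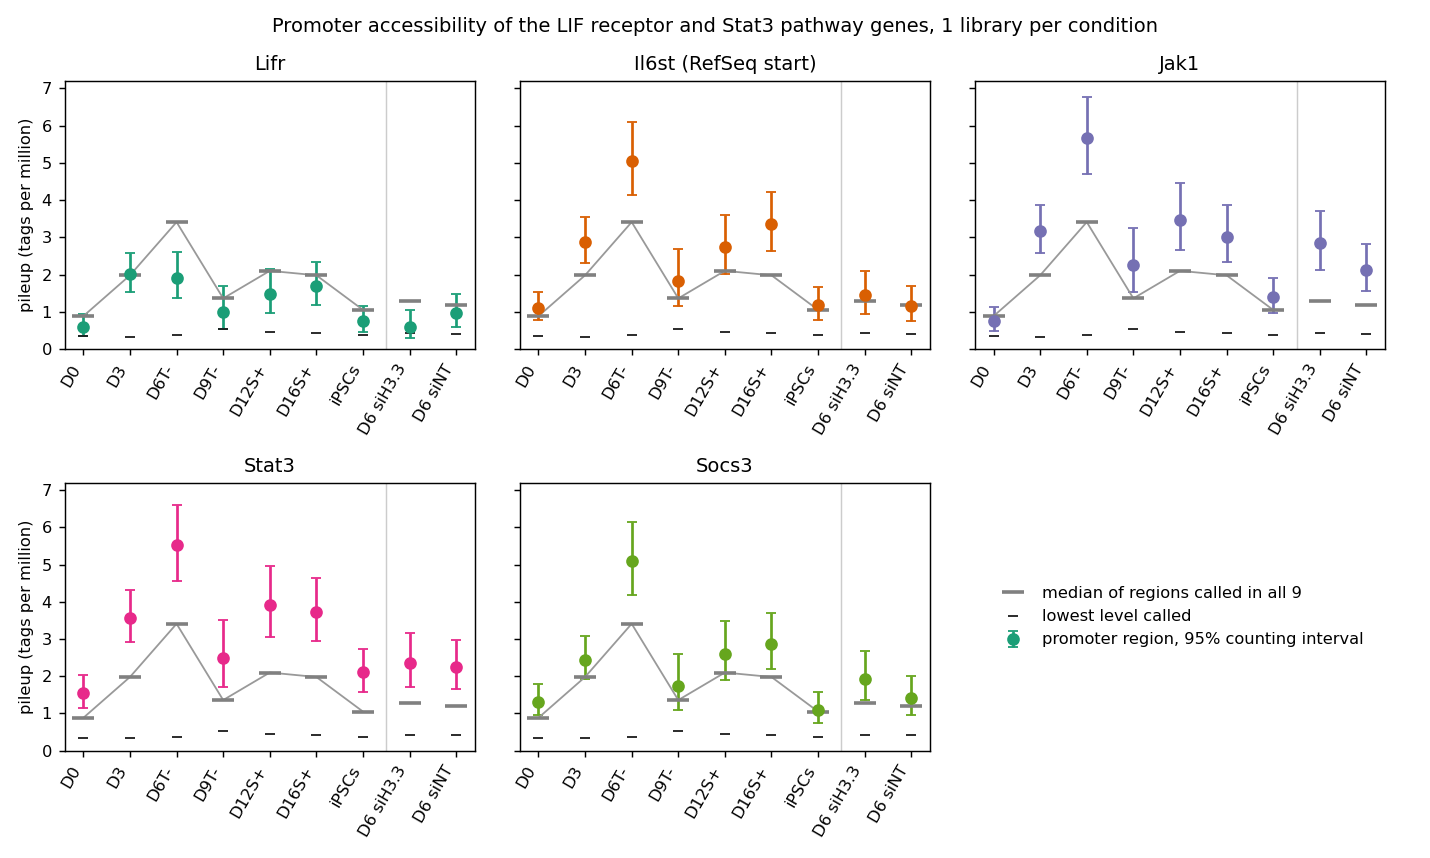
Promoter pileup in CPM (y axis) of the 5 genes in each library (x axis), 1 library per condition. Points with bars are levels with 95% counting intervals, grey dashes the median of the 12307 shared regions and short black dashes the lowest level called; the level of Stat3 runs above the grey line from 1.55 at D0 to 5.52 at D6T- and 2.11 in iPSCs.

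The receptor gene Lifr lies on chr15:7079559-7147489 (mm9, plus strand, ENSMUSG00000054263.5). Its promoter region, with its summit close to the start in every library, held 19 tags at D0 (0.599 CPM, interval 0.361 to 0.936), 61 at D3 (2.02 CPM, 1.54 to 2.59) and 41 at D6T- (1.92 CPM, 1.38 to 2.60). It measured 0.984 CPM at D9T-, 1.48 in D12S+ and 1.70 in D16S+, and iPSCs had 0.752. The siRNA libraries had 0.589 CPM (D6 siH3.3, 11 tags) and 0.964 CPM (D6 siNT, 21 tags). D3, D6T- and D16S+ were thus high and D0, iPSCs and D6 siH3.3 low, and no neighbours in the order of the 9 levels were apart beyond counting error. This was the weakest of the promoters, below the shared median in 8 of 9 libraries, and between the 5.42 and 60.2 percentile of all accessible promoters. Among the 5, Lifr was also the member whose CPM did not rise from D3 to D6T-. How many of all promoters did the same was not counted. From D0 to D6T-, 14.8% of all promoters were at least 2-fold lower on scaled values. While the shared median rose, its CPM at D6T- was 0.950 times that at D3 (0.623 to 1.43), and the scaled level fell from 1.02 to 0.562, a ratio of 0.552 (0.363 to 0.834). Of the other promoters, the scaled ratio of D6T- to D3 was 0.898 for Stat3, 1.02 for Il6st, 1.04 for Jak1 and 1.21 for Socs3, each with an interval that held 1. A second RefSeq start of Lifr, 10983 bp along the gene, had no region in any library.

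In an intron of Lifr, 3.4 kb past the start (chr15:7082748-7083103), a site was called at D12S+ (18 tags, 1.02 CPM, 0.606 to 1.62) and at D16S+ (25 tags, 1.18 CPM, 0.764 to 1.74) and in none of the other 7 libraries. At D16S+ it stood 3.40-fold above the lowest level called at D0 in CPM, without scaling, while the shared median of D16S+ was 2.25 times that of D0. A site 5.2 kb past the start appeared at D6T- (0.795 CPM) and in iPSCs (0.602 CPM). Behind the gene, sites at 71.1 kb (D3 and D6T-) and 75.6 kb (iPSCs) lay close to the lowest levels called, at 0.654 CPM or less. The 200 bases around the summit of the site of the late, SSEA-1-positive cells are shown because it is the highest of the locus beside the promoter. They lie at chr15:7082829-7083028 (plus strand, NCBIM37) and held none of the motifs searched, which are given further below.
Lifr, 3.4 kb past the start: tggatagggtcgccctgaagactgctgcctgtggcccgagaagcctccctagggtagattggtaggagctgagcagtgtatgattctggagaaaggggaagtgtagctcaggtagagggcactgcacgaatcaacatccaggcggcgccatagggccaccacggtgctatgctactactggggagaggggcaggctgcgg

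The gp130 gene Il6st lies on chr13:113265216-113297068 (plus strand, ENSMUSG00000021756.5) in GENCODE, with 1 transcript. Its RefSeq start, at position 113254278, lay in a region of all 9 libraries. This promoter held 35 tags at D0 (1.10 CPM, 0.769 to 1.53), 87 at D3 (2.88 CPM, 2.30 to 3.55) and 108 at D6T- (5.05 CPM, 4.14 to 6.10). It then measured 1.82 CPM at D9T-, 2.73 at D12S+, 3.35 at D16S+ and 1.17 in iPSCs, with 1.45 in D6 siH3.3 and 1.15 in D6 siNT. D6T- stood above the next library, D16S+, beyond counting error, and no other neighbours in the order did. On the scaled values the levels ran from 0.962 to 1.69, and of the 36 possible pairs of libraries 1 had an interval without 1 (not adjusted for the number of pairs). The 200 bases before this start, at chr13:113254078-113254277, are printed to identify the promoter that the GENCODE record leaves out. They were 69.5% G or C.
Il6st promoter: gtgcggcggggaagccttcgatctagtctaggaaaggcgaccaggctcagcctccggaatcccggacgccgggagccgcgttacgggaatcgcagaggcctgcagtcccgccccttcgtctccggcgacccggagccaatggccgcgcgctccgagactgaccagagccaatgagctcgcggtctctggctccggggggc

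Upstream of it, 1.5 kb before the RefSeq start, a second region (chr13:113252525-113253073) was called at D16S+ (18 tags, 0.850 CPM, 0.504 to 1.34) and in iPSCs (24 tags, 0.903 CPM, 0.579 to 1.34) and nowhere else. In iPSCs this was, without scaling, 2.60-fold above the lowest level called at D0 and 2.41-fold above that of D6T-. The site was named after its values were seen, because it lies outside the 10 kb flank of the GENCODE record. Its 200 bases around the summit (chr13:113252707-113252906, plus strand) hold an octamer, the ATGCAAAT motif known to be bound by Oct4, on the minus strand at bases 70 to 77, in capitals. Of all regions of the iPSC library, 1.82% hold an octamer in a window of this length, and a match says nothing on binding.
Il6st, 1.5 kb upstream: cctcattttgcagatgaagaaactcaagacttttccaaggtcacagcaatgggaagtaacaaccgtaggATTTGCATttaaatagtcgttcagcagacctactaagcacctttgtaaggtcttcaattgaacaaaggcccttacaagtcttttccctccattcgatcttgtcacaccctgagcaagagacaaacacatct
The other sites of Il6st were weak. One behind the gene, 45.6 kb from the RefSeq start, was called in 6 of the 7 time-course libraries (0.410 to 0.852 CPM) and in neither siRNA library, and an intronic one at 22.8 kb had 0.467 CPM at D6T- and 0.414 in iPSCs.

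The kinase gene Jak1 lies on chr4:100824972-100937887 (minus strand, ENSMUSG00000028530.8) and its flank reaches into Raver2. Its promoter held 24 tags at D0 (0.757 CPM, 0.485 to 1.13), 96 at D3 (3.18 CPM, 2.57 to 3.88) and 121 at D6T- (5.66 CPM, 4.69 to 6.76). Then came 2.27 CPM at D9T-, 3.46 at D12S+, 3.02 at D16S+ and 1.39 in iPSCs (37 tags, 0.980 to 1.92), with 2.84 in D6 siH3.3 and 2.11 in D6 siNT. D0 was the lowest library and D6T- the highest, and both stood apart from their neighbour in the order. The span of 7.47-fold over the time course was wider than that of the shared median, 3.87-fold. On scaled values D0, at 0.857, remained the lowest library, and D3 was 1.87-fold (1.18 to 3.05), D6T- 1.93-fold (1.24 to 3.13) and D16S+ 1.78-fold (1.10 to 2.97) above it. Of 36 pairs of libraries, 8 had an interval without 1 for Jak1, against 2 for Lifr, 1 for Il6st and 0 each for Stat3 and Socs3.

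Jak1 had the most sites of the 5 genes, 15 in all, of which 1 was the promoter, 11 lay in introns and 3 behind the gene in introns of Raver2. The strongest, 62.4 kb into the gene (chr4:100874982-100875818), exceeded the promoter at D0, D3 and D6T-. Its 48 tags at D0 (1.51 CPM, 1.12 to 2.01) became 122 at D3 (4.04 CPM, 3.35 to 4.82) and 163 at D6T- (7.62 CPM, 6.50 to 8.88). It measured 1.59 CPM at D9T- (0.984 to 2.43), 2.38 at D12S+ (1.72 to 3.22), 2.09 in D6 siH3.3 and 2.16 in D6 siNT, and was not called at D16S+ or in iPSCs. In CPM, without scaling, its level at D6T- was 17.9-fold, and at D12S+ 5.61-fold, above the lowest level called at D16S+. The promoter, by contrast, measured 3.46 CPM at D12S+ and 3.02 at D16S+, a ratio of 1.15 (0.793 to 1.65). On scaled values the intronic site stood at 1.71, 2.03 and 2.23 at D0, D3 and D6T- and at 1.17 and 1.14 at D9T- and D12S+.

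None of the other sites of Jak1 outside its promoter was called at D16S+ either. The site at 30.7 kb (chr4:100906925-100907598) had 0.914, 1.19 and 2.85 CPM at D0, D3 and D6T-, 0.681 and 0.738 at D9T- and D12S+, and no call at D16S+ or in iPSCs. The site at 53.5 kb (chr4:100884081-100884571), named after its values were seen, had 0.378, 1.16 and 2.66 CPM at D0, D3 and D6T- and 1.14 at D9T-, and none later. The site at 107 kb was called at D0, D3 and D6T- alone (0.757, 0.595 and 1.78 CPM). Outside the promoter 10 sites were called at D0 and at D3 and 12 at D6T-. The number fell to 5 in D9T-, 4 in D12S+ and 0 in D16S+, with 2 in iPSCs and 6 in each siRNA library. Counted before joining, none of the 12 regions of D6T- outside the promoter was overlapped at D16S+ and 2 of the 12 in iPSCs. Over the loci of all protein-coding genes, 10 kb flanks included, these shares were 16.9% and 18.3%, so most such regions were not overlapped either. Regions farther from protein-coding genes were left out of these shares. In these loci, 65781 regions outside protein-coding promoters were called at D6T- and 19455 at D16S+. Of the 11 such regions that D0 held at Jak1, iPSCs overlapped 3, beside 18.8% over all protein-coding loci.

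**Figure D2:**
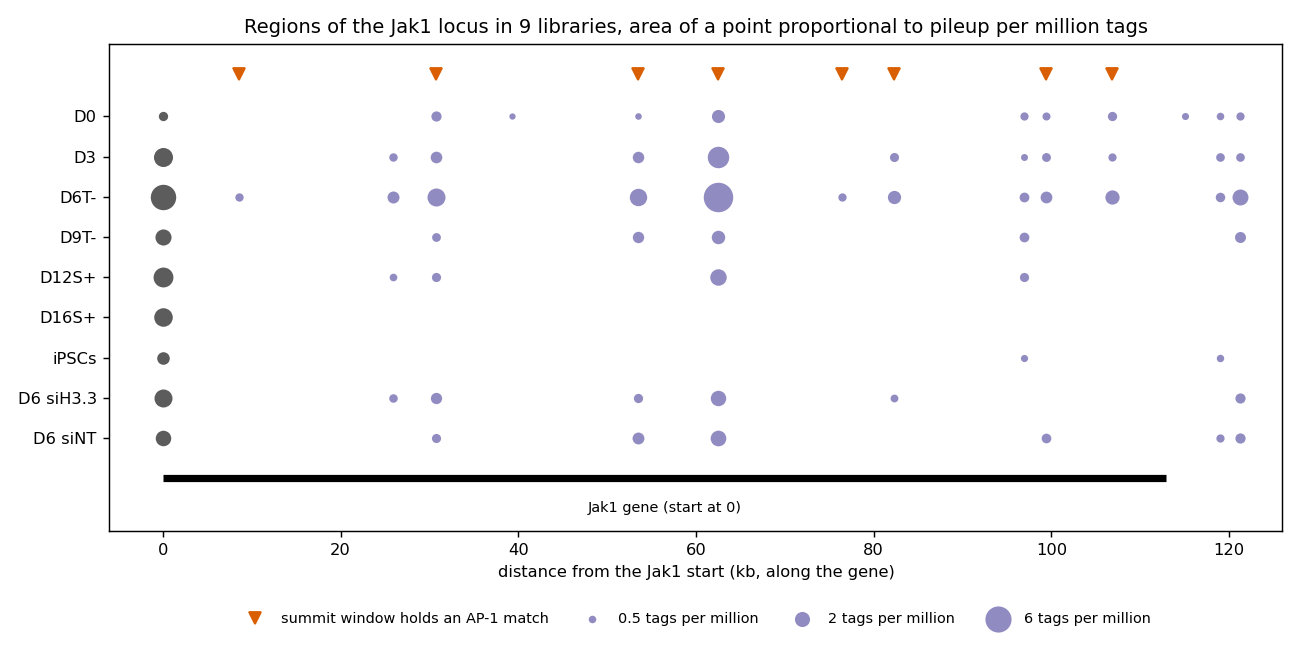
Accessible sites of the Jak1 locus by distance from its start in kb (x axis) and library (y axis). The area of a point is its pileup in CPM, black points are the promoter and triangles mark sites with an AP-1 match; at D16S+ the promoter alone is left, and the 8 marked sites have no point at D16S+ or in iPSCs.

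AP-1 factors such as Fos and Jun recognise TGANTCA and are abundant in fibroblasts. Of the 14 sites of Jak1 outside its promoter, 8 held this motif within 200 bp around the summit. Over all protein-coding loci the motif lay in 35.9% of the regions outside promoters for D6T-, 28.4% for D0, 7.39% for D16S+ and 6.83% for iPSCs. All 8 sites with the motif were called at D6T- and 0 at D16S+ or in iPSCs, and of the 6 without it 4 were called at D6T- and 2 in iPSCs. In the same loci, D16S+ overlapped 6.35% of the D6T- regions outside promoters with an AP-1 match and 22.8% of those without. For iPSCs the shares were 7.40% and 24.4%. The Jak1 sites are too few to be set apart from these shares. The sequences of the 3 sites at 62.4, 53.5 and 30.7 kb are shown because they carried the early signal, each as 200 bases around the summit on the minus strand with AP-1 matches in capitals. They lie at chr4:100875344-100875543, chr4:100884265-100884464 and chr4:100907078-100907277, and the first holds 3 matches.
Jak1, 62.4 kb into the gene: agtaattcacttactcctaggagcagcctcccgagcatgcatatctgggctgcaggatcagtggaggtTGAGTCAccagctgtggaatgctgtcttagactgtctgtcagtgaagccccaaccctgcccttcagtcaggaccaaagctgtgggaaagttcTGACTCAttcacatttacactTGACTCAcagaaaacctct
Jak1, 53.5 kb into the gene: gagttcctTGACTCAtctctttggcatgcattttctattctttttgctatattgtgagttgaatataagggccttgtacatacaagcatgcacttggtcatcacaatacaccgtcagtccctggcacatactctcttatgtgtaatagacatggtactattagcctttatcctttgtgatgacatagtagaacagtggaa
Jak1, 30.7 kb into the gene: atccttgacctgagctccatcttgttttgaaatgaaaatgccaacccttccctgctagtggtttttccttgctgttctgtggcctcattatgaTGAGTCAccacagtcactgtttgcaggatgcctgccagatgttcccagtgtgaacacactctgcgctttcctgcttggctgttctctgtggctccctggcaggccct

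The transcription factor gene Stat3 lies on chr11:100746412-100800854 (minus strand, ENSMUSG00000004040.10) beside Stat5a. Its promoter was the strongest of the 5 at D0, with 49 tags (1.55 CPM, 1.14 to 2.04). It had 108 tags at D3 (3.57 CPM, 2.93 to 4.31), 118 at D6T- (5.52 CPM, 4.57 to 6.61) and 33 at D9T- (2.50 CPM, 1.72 to 3.51). It measured 3.92 CPM at D12S+, 3.73 at D16S+ and 2.11 in iPSCs, with 2.36 in D6 siH3.3 and 2.25 in D6 siNT. D6T- stood above the next library beyond counting error and the other neighbours in the order did not differ. On scaled values the levels spanned 1.24-fold, from 1.62 at D6T- to 2.00 in iPSCs, and none of the 36 pairs had an interval without 1. Among all accessible promoters it ranked between the 82.4 and 92.7 percentile in every library. Stat3 was thus accessible in fibroblasts before LIF was added, and its CPM moved with that of the shared regions.

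A site 45.9 kb into Stat3 (chr11:100754701-100755152) was called in all 7 time-course libraries, with 0.883 CPM at D0, 1.64 at D6T- and 0.790 in iPSCs, and in neither siRNA library. By the rule it counts as promoter, since short transcripts annotated as retained introns start there. A site at 26.6 kb had 0.695 CPM at D3, 0.982 at D6T- and 0.505 in D6 siNT. The other sites, at 3.9, 5.2, 37.5, 52.1 and 64.4 kb, did not exceed 0.748 CPM, and outside the promoters none was called at D0 or from D9T- to iPSCs.

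Socs3, the feedback inhibitor, lies on chr11:117827393-117831361 (minus strand, ENSMUSG00000053113.3). Its promoter summit lay 69 to 275 bp upstream of the start of the protein-coding transcript (117830500). The region held 42 tags at D0 (1.32 CPM, 0.954 to 1.79), 74 at D3 (2.45 CPM, 1.92 to 3.07) and 109 at D6T- (5.10 CPM, 4.18 to 6.15). It measured 1.74 CPM at D9T-, 2.61 at D12S+, 2.88 at D16S+ and 1.09 in iPSCs (29 tags, 0.731 to 1.57), with 1.93 in D6 siH3.3 and 1.42 in D6 siNT. D6T- was the highest library and iPSCs the lowest, and only D6T- and D16S+ differed among neighbours in the order. Further upstream regions counted as promoter, 0.776 kb and 2.85 kb before the GENCODE start, were called in iPSCs alone, with 13 tags (0.489 CPM) and 14 tags (0.527 CPM). On scaled values the levels ran from 1.04 to 1.50 and 0 of 36 pairs had an interval without 1. The 200 bp window around the summit held the STAT motif TTCCNGGAA, printed here with 10 bases on either side (chr11:117830543-117830571, minus strand, the motif in capitals).
Socs3 STAT match: ggccgggcagTTCCAGGAAtcggggggcg
This was the one match in the 44 regions, which count the Il6st locus from its RefSeq start, and of all D6T- regions 0.845% hold one. The looser TTCNNNGAA, which includes the former, was found in this region alone, beside 4.45% to 6.48% of all regions by library.

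Around Socs3, a gene of 3969 bp, 12 sites were called, of which 9 lay outside the promoter. The site 6.4 kb past the GENCODE start, behind the gene (chr11:117824422-117825962), was the sole site outside a promoter that was called in all 9 libraries. Its level rose from 1.20 CPM (D0) over 2.48 (D3) to 3.83 (D6T-, 3.05 to 4.76). It then was 1.59 (D9T-), 2.67 (D12S+), 2.46 (D16S+) and 1.09 (iPSCs), with 1.18 in D6 siH3.3 and 1.29 in D6 siNT. This course resembled that of the promoter, and the scaled values lay between 0.917 and 1.36.

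Upstream, 5.5 kb before the start (chr11:117836641-117838123), a site was not called at D0 and had 0.662 CPM at D3 and 1.50 at D6T- (1.02 to 2.11). The later libraries had 1.06 (D9T-), 1.08 (D12S+), 1.46 (D16S+) and 1.24 CPM (iPSCs, 33 tags, 0.855 to 1.74). The joined region holds more than 1 summit. Its highest lay between 117836862 and 117837041 in D3, D6T-, D16S+ and iPSCs. In D9T-, D12S+ and D6 siNT it lay between 117837617 and 117837772, so their levels are not those of the same summit. The region was called in D6 siNT (16 tags, 0.734 CPM, 0.420 to 1.19) and not in D6 siH3.3, whose lowest level called was 0.429 CPM. Such differences between the siRNA libraries went both ways. Jak1 sites at 82.3 and 25.9 kb were called in D6 siH3.3 (0.536 and 0.643 CPM) and not in D6 siNT. Over the 5 loci 11 sites were called in D6 siH3.3 and 14 in D6 siNT. In CPM, without scaling, the site 5.5 kb upstream of Socs3 stood in iPSCs 3.58-fold above the lowest level called at D0. Whereas the scaled promoter of Socs3 was lowest in iPSCs, the scaled level of this site was highest there, at 1.18. It was 0.333 at D3, 0.438 at D6T-, 0.778 at D9T- and 0.738 at D16S+. Other weak sites also scaled higher in iPSCs than at D6T-, such as Socs3 at 7.6 kb (0.643 against 0.329) and Lifr at 5.2 kb (0.571 against 0.233). The strong Socs3 site at 6.4 kb did not (1.04 against 1.12). A neighbouring site 4.9 kb before the start, named after its values were seen, was called at D12S+ (0.681 CPM) and D16S+ (0.897 CPM) alone. Counted before joining, D6T- held 9 regions at Socs3 outside the promoter (7 sites after joining), so some of the 9 are parts of the same site. After joining, D16S+ had 5 sites there and iPSCs 4, and the 5 include the one at 4.9 kb, not called at D6T-. D16S+ overlapped 6 of the 9 and iPSCs 6, beside 0 and 2 of 12 at Jak1. Over all protein-coding loci the shares were 16.9% and 18.3%. The 200 bases around the D6T- summit of the site at 5.5 kb (chr11:117836763-117836962, minus strand) are shown because its course differs from that of the promoter. None of the motifs searched was found in these bases. The highest summits of the other libraries lie outside them, that of iPSCs at 117836971.
Socs3, 5.5 kb upstream: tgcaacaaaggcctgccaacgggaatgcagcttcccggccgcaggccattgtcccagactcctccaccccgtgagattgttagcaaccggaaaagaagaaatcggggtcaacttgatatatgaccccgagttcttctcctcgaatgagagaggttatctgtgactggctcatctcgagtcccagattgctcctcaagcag

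**Figure D3:**
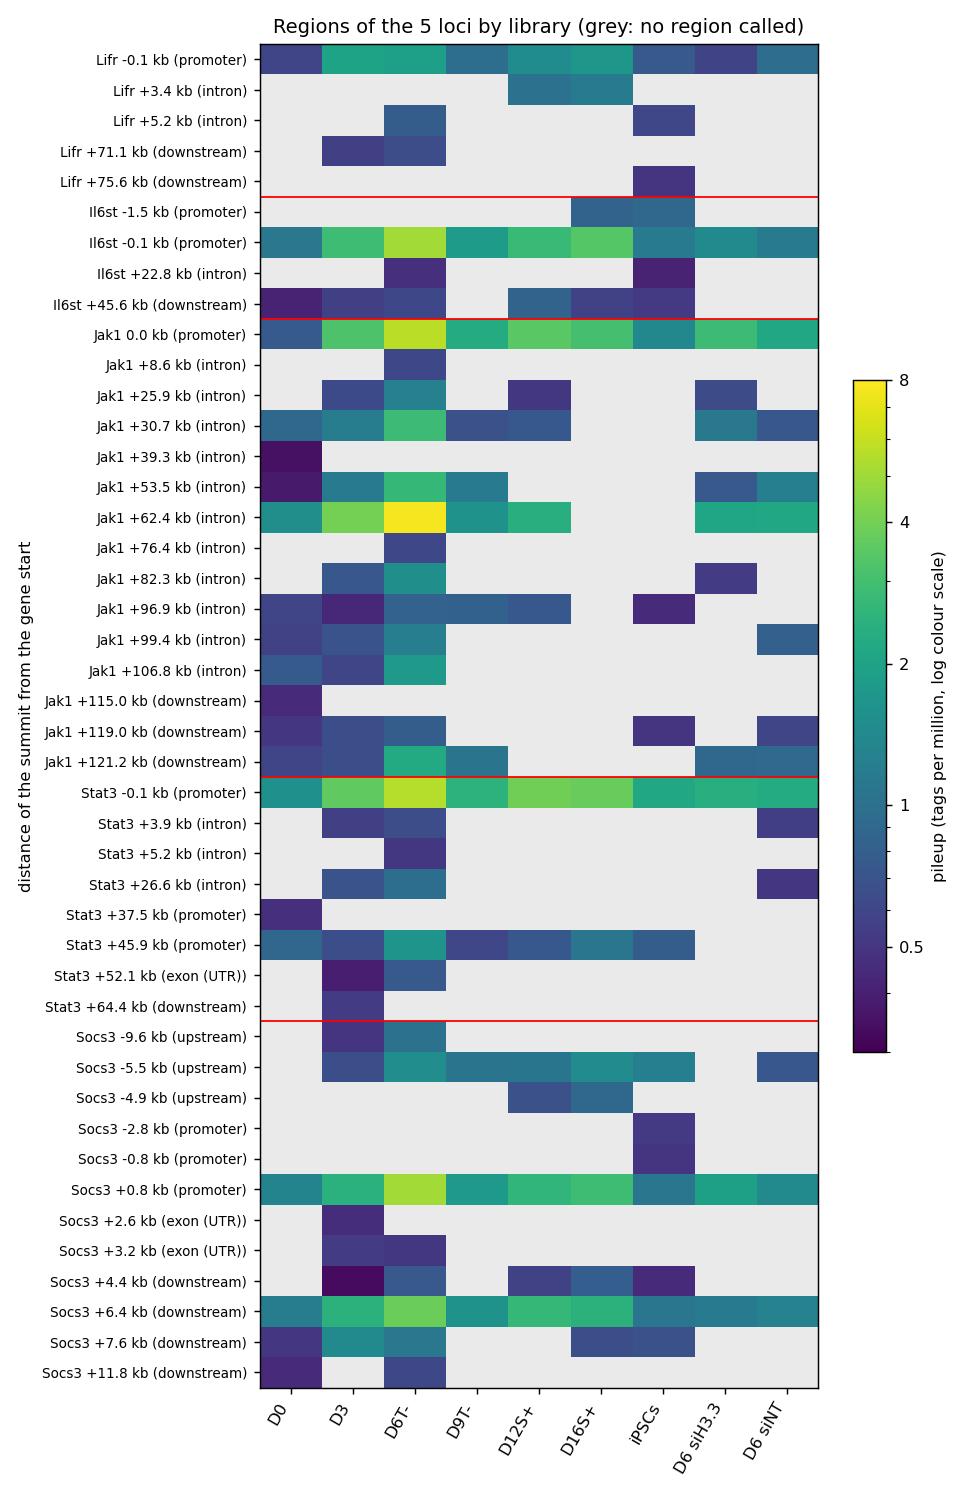
All 44 regions of the 5 loci (rows, by distance from the gene start, Il6st from its RefSeq start) in 9 libraries (columns); colour is pileup in CPM on a log scale and grey marks no call. The promoters at the gene starts run as full rows, the Jak1 rows are empty at D16S+ except for the promoter, and the rows of Lifr (+3.4 kb), Il6st (1.5 kb upstream) and Socs3 (4.9 kb upstream) are among those filled only from D12S+ on.

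Over all 5 loci, 20 of the 42 sites were called at D0, 28 at D3 and 32 at D6T-. Later libraries had 12 (D9T-), 15 (D12S+), 12 (D16S+) and 17 (iPSCs), with 11 in D6 siH3.3 and 14 in D6 siNT. In 27 of the 42, D6T- had the highest CPM, as it did in 51.0% of all joined regions. Of the 42, 5 were called in all 9 libraries, beside 5.86% of all joined regions, and 11 in 1 library, beside 46.5%. With the same number of strongest regions taken from every library, the counts lay between 9 (iPSCs) and 13 (D6T- and D6 siNT). Equal totals by themselves draw such counts together, so this does not show what the surplus at D6T- went with. Promoters included, Jak1 then had 7 sites at D0 and at D6T- against 1 at D16S+ and 1 in iPSCs, and Socs3 had 2 and 3 against 6 and 4. The same counts over all protein-coding loci were not made, so these changes cannot be called particular to the 2 genes. Outside promoters and before joining, iPSCs held 11 regions in the 5 loci, of which D0 overlapped 5, beside 25.6% over all protein-coding loci. Other motifs were rare. The octamer was found in 1 of 44 regions and GGGNGTGG, bound by Klf factors, in 6 of 44, beside 7.94% to 14.4% of all regions by library. AP-1 was found in 12 of 44, beside 6.08% to 33.8%. Both strands were searched.

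**Figure D4:**
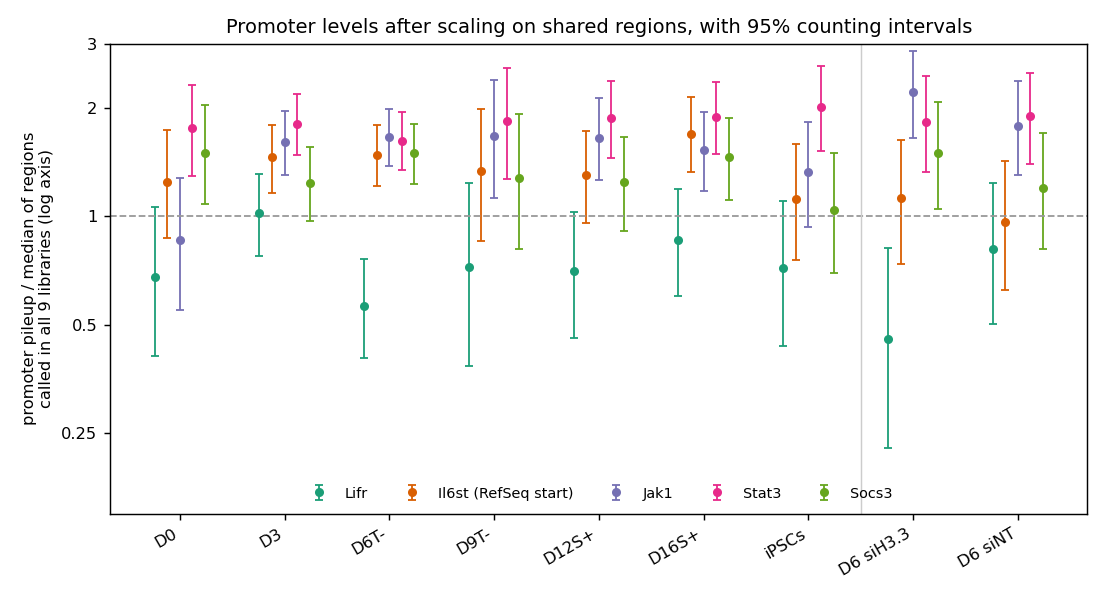
Promoter pileup divided by the median of the shared regions (y axis, log scale) in each library (x axis), with 95% counting intervals. Stat3 lies between 1.62 and 2.00 throughout, Lifr at or below 1.02, and Jak1 is lowest at D0.

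Between D0 and iPSCs, the start and the end of the process, none of the 5 promoters differed by 2-fold. The ratio of iPSCs to D0 was 1.84 for Jak1 (1.07 to 3.21), 1.36 for Stat3 (0.913 to 2.04), 1.26 for Lifr (0.636 to 2.49), 1.06 for Il6st (0.630 to 1.76) and 0.824 for Socs3 (0.495 to 1.35). Read at the start of the gene record alone, which the main region of D0 does not reach, Socs3 gave 1.92. Jak1 was thus higher in iPSCs than counting error allows for, though scaling on shared regions brought its interval to 0.898 to 2.69. Of all protein-coding promoters called in either library, 15.5% were at least 2-fold higher and 2.26% at least 2-fold lower in iPSCs, or 7.55% and 4.32% on scaled values. From D0 to D6T- the CPM of all 4 GENCODE promoters rose by over 2-fold (3.20 for Lifr, 3.57 for Stat3, 3.85 for Socs3 and 7.47 for Jak1), as did 84.5% of all. Scaled, the ratios were 0.828, 0.924, 0.995 and 1.93.

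Depletion of H3.3 was compared with the non-targeting siRNA at day 6. Per the study, the knockdown was made before or at the start of reprogramming and was transient. The day 6 cells may therefore no longer have been depleted. ATAC-Seq does not measure H3.3 itself, so the depletion was not checked here. The ratio of D6 siH3.3 to D6 siNT was 1.36 for Socs3 (0.815 to 2.27), 1.34 for Jak1 (0.889 to 2.04), 1.26 for Il6st (0.704 to 2.26), 1.05 for Stat3 (0.681 to 1.61) and 0.611 for Lifr (0.266 to 1.33). All 5 intervals held 1 and 0 of 5 promoters passed 2-fold, as 0.936% of all promoters did upwards and 0.905% downwards. The intervals still allow changes of up to 2.27-fold upwards for Socs3 and down to 0.266 for Lifr. The Jak1 site at 62.4 kb was alike in the 2 libraries, with 2.09 and 2.16 CPM (ratio 0.968, 0.617 to 1.51). D6T- and D6 siNT are both day 6 cells, but if the siRNA libraries were not sorted, sorted cells are here set against unsorted ones. The ratio of D6T- to D6 siNT was 1.99 for Lifr (1.15 to 3.54), 2.45 for Stat3, 2.68 for Jak1, 3.58 for Socs3 (9.25 at the start of the gene record alone) and 4.40 for Il6st, and 78.2% of all promoters were at least 2-fold higher in D6T-. After scaling, the ratio was 0.695 for Lifr, 0.858 for Stat3, 0.937 for Jak1, 1.25 for Socs3 and 1.54 for Il6st, each with an interval that held 1.

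**Figure D5:**
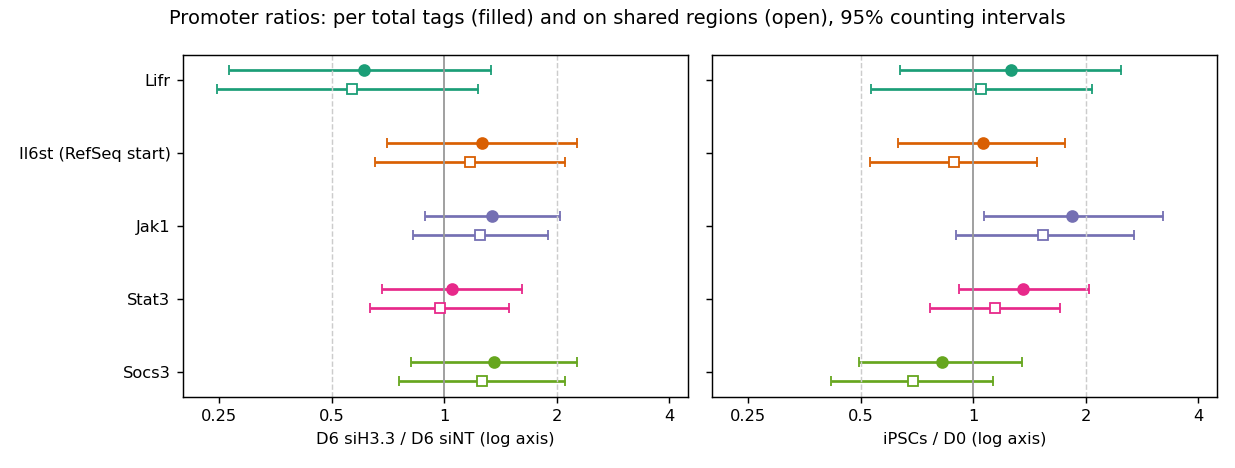
Ratios of promoter pileup (x axis, log scale) of D6 siH3.3 to D6 siNT (left) and of iPSCs to D0 (right) for the 5 genes, per total tags (filled) and scaled on shared regions (open), with 95% counting intervals. Dashed lines mark 2-fold; no point passes them, and the interval of Jak1 per total tags in iPSCs over D0, 1.07 to 3.21, is the one that leaves out 1.

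The rest of the pathway was read from a list of 46 ligands, receptors, kinases, STATs, inhibitors, adaptors and targets, of which 45 were found in the annotation. Of these, 36 had a promoter region at D0, 39 at D6T- and 38 in iPSCs, beside 58.0%, 68.3% and 63.9% of all protein-coding genes. All 14 inhibitors were accessible in every library, as 43.9% of all genes were. Among 41 genes with a region in D0 or iPSCs, 10 were at least 2-fold higher in iPSCs (24.4%, beside 15.5% of all promoters) and 1 at least 2-fold lower. Their median ratio was 1.53 and that of all promoters 1.31. Scaled, 5 remained above 2-fold.

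Inhibitors gave 3 of the 10. Socs6, a relative of Socs3, had 0.851 CPM at D0 and 3.08 in iPSCs (3.62-fold, 2.32 to 5.82). Socs2, another relative, was 2.16-fold higher (1.14 to 4.26) and Ptpn2, a phosphatase that acts on Jak1, 2.12-fold (1.16 to 4.01). Of the targets, Klf5, a transcription factor of pluripotent cells, rose from 0.914 to 2.67 CPM (2.92-fold, 1.87 to 4.67) and the kinase gene Pim1 from 0.946 to 1.99 CPM (2.11-fold, 1.32 to 3.42). Stat6 measured 0.568 CPM at D0 and 1.47 in iPSCs (2.59-fold, 1.44 to 4.80), and the adaptor gene Sos1 was 2.39-fold higher (1.30 to 4.55). Stat5b (1.05 CPM), Ctf1, which encodes a ligand of Lifr and gp130 (0.865 CPM), and the kinase gene Jak3 (0.752 CPM) were called in iPSCs and not at D0. In the other direction Il6, the gene of the cytokine that signals through gp130, had 1.01 CPM at D0 and was not called in iPSCs. On scaled values Socs6, Stat5b, Klf5, Stat6 and Ctf1 kept a ratio of 2.09 or more. In D6 siH3.3 against D6 siNT, 0 of 37 were 2-fold higher and 1 lower, Ptpn11, which was not called in D6 siH3.3 and had 0.918 CPM in D6 siNT.

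Genes whose promoter course over the 9 libraries was most like that of a member were sought among 9818 protein-coding genes, by the root mean square difference of log2 CPM after centring each gene. Nearest to Stat3 were Brms1 (0.061), Slc11a2 (0.074) and Gpt2 (0.078), where the median over all genes was 0.303. Nearest to Jak1 were Lpcat3 (0.074), Pik3c2a (0.100) and Rrbp1 (0.104), with a median of 0.432. Socs3 was nearest to Pex10 (0.078), Exog (0.085) and BC018507 (0.087), and Il6st to Jarid2 (0.085), Tfb2m and Cnst (both 0.105). Lifr had the most distant neighbours, Naa15 (0.147), Dak and Ddb1 (both 0.156). The distances rest on 9 libraries that all genes share, with their depth.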

How the data were processed

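ATAC-Seq reads were mapped to mm9 with STAR by the authors, who removed duplicates with Picard and called peaks per library with MACS2 2.1.0.20151222 without a control (q-value cutoff 0.05, tags extended to 200 bp, no local background), as the methods and file headers record. Pileup was deposited as a signal that counts tags at each summit without correction for depth. Fold enrichment was deposited as a ratio to evenly spread tags. The p-value and the q-value were deposited as their −log10. Here, peaks that overlapped within 1 library became 1 region, whose highest pileup was divided by the total tags. Regions of different libraries were joined by 1 bp. Genes came from GENCODE vM1 on NCBIM37, the assembly of mm9; no peak ran past a chromosome end in 189 comparisons. Promoter sequences came from RefSeq (GRCm38.p6) and were located by exact matching. An uncalled promoter took the lowest pileup called in its library when 2-fold shares were counted. Intervals are exact Poisson intervals for levels and exact conditional (Clopper-Pearson) intervals for ratios, both at 95%. They cover counting error only, since PCR copies and single libraries leave the spread between cultures unknown. The precision follows the tags per region, from 7 at the lowest call to 163.

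The genes, lists and alternatives were chosen with earlier results of these data known. Named beside the 5 genes were pathway genes past 2-fold between D0 and iPSCs (at most 12), the 3 genes nearest to each member, the 3 highest regions per locus and regions called at D0, D3 and D6T- alone or at D12S+, D16S+ and in iPSCs alone. Functions were tested on simulated data, where 8 of 8 tests passed. Python 3.11.15, numpy, pandas, scipy 1.17.1 and pysam were used.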

Additional observations from a re-analysis of the deposited data

How the results depend on the processing

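Scaling on shared regions decided most directions in CPM; for the levels and for D6T- over D0 it was chosen after seeing the data. Under it, 0 members in place of 3 had their time-course maximum at D6T-, 0 in place of 4 were 2-fold higher at D6T- than at D0, and 0 in place of 3 differed by 2-fold between D6T- and D6 siNT. Ratios of D6T- to D0 turned to 0.828 (Lifr), 0.924 (Stat3) and 0.995 (Socs3), and those of D6T- to D6 siNT to 0.695 (Lifr), 0.937 (Jak1) and 0.858 (Stat3). Pathway genes at least 2-fold higher in iPSCs than at D0 went from 10 to 5. With the summit itself required in the promoter, 2 members in place of 0 differed by 2-fold between iPSCs and D0, and Jak1 turned to 0.497, as its iPSC summit lies 63 bp past the start. With the stronger 50% of regions, 1 member (Lifr, lost in D6 siH3.3) in place of 0 differed by 2-fold after H3.3 depletion. Sites per locus went from 42 to 27 with the stronger 50% and to 24 with the same number of strongest regions per library. The deposited fold enrichment, a narrower promoter, leaving out D9T-, another flank or overlap and other motif windows moved none of the counts of members, sites or AP-1 matches by over 1.5 times. Read at the start of the gene record alone, Socs3 turned from 0.824 to 1.92 (iPSCs over D0) and rose from 3.58 to 9.25 (D6T- over D6 siNT), as the main regions of D0 and D6 siNT do not reach that start. The STAT match of Socs3 was not in a window of 100 bp, and with 400 bp the looser motif was found in 4 regions in place of 1. With 7 to 11 tags at the lowest call, changes of weak sites such as those of Lifr and Il6st are not detectable at this depth. No paired analysis was possible because each condition had 1 library.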
